A study of Mus musculus with 12 samples.

Results

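The transcripts described here encode 8 translation and messenger ribonucleoprotein (mRNP) factors of spermatogenic cells: Ybx2, Ybx3, Ddx25, Boll, Elavl1, Pabpc1, Eif4e and Cnot7. They were taken by Ensembl ID from a table of 20345 genes. The choice was by the roles of their proteins, with earlier results of these data known. All 8 passed the filter of at least 1 RPKM in at least 2 columns, which kept 12246 genes. RPKM scales the reads of a gene to a length of 1000 bases and a total of 1000000 reads. The IDs were ENSMUSG00000018554 (Ybx2), ENSMUSG00000030189 (Ybx3), ENSMUSG00000032101 (Ddx25), ENSMUSG00000025977 (Boll), ENSMUSG00000040028 (Elavl1), ENSMUSG00000022283 (Pabpc1), ENSMUSG00000028156 (Eif4e) and ENSMUSG00000031601 (Cnot7).

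MIWI, a mouse PIWI protein, carries pachytene piRNAs in spermatocytes and round spermatids. Late spermatocytes of 3 genotypes were used: Miwi +/-, which keeps a working copy, Miwi ADH/-, in which the only copy carries the ADH allele, known from earlier work as a mutation of the catalytic site, and Miwi -/-. In each genotype, RNA that co-purified with MIWI (IP) and RNA of the starting material (input) was sequenced after removal of ribosomal RNA, with 2 samples per group per the labels and 1 RPKM column per group in the deposited table. The IP from Miwi -/- cells is the background of the antibody, since its target is absent. The labels state no age, strain or number of animals, and name testes or sorted cells as the source of RNA without saying which sample came from which.

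Male germ cells transcribe many messages well before they translate them. In between, the messages are kept in mRNPs, whose proteins coat the body of the RNA, hold its poly(A) tail, bind its cap or remove the tail. Earlier work placed the MIWI protein in complexes with cap-binding and deadenylation factors. The present measurements are of the mRNAs that encode such factors, not of the proteins.

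Each value rests on a single column, so no difference below has a replicate check or a p-value. The RPKM values of a gene step in single reads, which gave the read numbers behind them. The listed genes held 1725558, 3706479 and 761525 reads in the Miwi +/-, ADH/- and -/- IPs and 3918947, 2627634 and 3810918 in the inputs. The members were read between 50 and 2787 times in the IPs and between 233 and 10492 times in the inputs. Intervals are exact 95% counting intervals (Poisson for a level, Clopper-Pearson for a ratio). They compare columns, not conditions, and leave out all error other than counting, and reads copied by PCR do not count separate molecules. Neither the targeted gene nor cell type markers could be checked, because the IDs of other genes are not paired with names here.

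In the inputs the mRNA-coating Y-box proteins and the tail-binding protein were the most abundant of the set. Ybx3, a Y-box protein of RNA and DNA, had 854, 635 and 868 RPKM in the Miwi +/-, ADH/- and -/- inputs and 129.7, 161 and 82.1 RPKM in the IPs in the same order. Ybx2, the germ-cell Y-box protein that packages stored mRNA, had 398, 226 and 331 RPKM in the inputs and 54.6, 44.1 and 14.003 RPKM in the IPs. For both genes every IP value lay below every input value, and the Miwi -/- IP was the lowest column. That IP also had the lowest median of all kept genes, at 1.62 RPKM. In the Miwi +/- input 0.269% of kept genes stood above Ybx3 and 0.939% above Ybx2.

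Ddx25, a DEAD-box helicase of germ and Leydig cells needed to complete spermatid development, had 181, 155 and 162 RPKM in the Miwi +/-, ADH/- and -/- inputs and 71.0, 78.8 and 21.0 RPKM in the IPs. Boll, the member of the DAZ family of RNA-binding proteins that acts in meiosis and spermatid development, had 181, 139 and 187 RPKM in the inputs and 79.8, 91.8 and 46.9 RPKM in the IPs. Their inputs lay close together, and in Miwi +/- and ADH/- the counting intervals of these neighbours overlapped. They overlapped in the Miwi +/- IP too, but not in the Miwi ADH/- and -/- IPs, where Boll was above Ddx25. Elavl1 (HuR), which binds AU-rich elements, was the least abundant member in the inputs, at 12.2, 11.5 and 11.7 RPKM, and had 7.66, 10.3 and 3.42 RPKM in the IPs.

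Among the end-binding factors, Pabpc1, the cytoplasmic poly(A)-binding protein, had 555, 415 and 537 RPKM in the Miwi +/-, ADH/- and -/- inputs and 176, 194 and 115 RPKM in the IPs. Eif4e, the cap-binding subunit of the initiation complex, had 19.96, 14.7 and 16.0 RPKM in the inputs and 5.78, 11.2 and 4.16 RPKM in the IPs. Cnot7, a catalytic deadenylase of the CCR4-NOT complex, had 32.7, 34.8 and 42.2 RPKM in the inputs and 16.9, 21.6 and 10.7 RPKM in the IPs. Eif4e was the member whose Miwi ADH/- IP stood furthest above its Miwi +/- IP. Pabpc1 and Cnot7, like Eif4e, had their highest IP value in Miwi ADH/- and their lowest in Miwi -/-. The median RPKM of all kept genes in the IPs had the same order, at 5.06 in Miwi ADH/-, 4.14 in Miwi +/- and 1.62 in Miwi -/-. With median-of-ratios factors Pabpc1, Ybx3, Boll and Cnot7 were lower in the Miwi ADH/- IP than in the Miwi -/- IP. Their log2 differences were then -0.57, -0.36, -0.36 and -0.31.

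**Figure D1:**
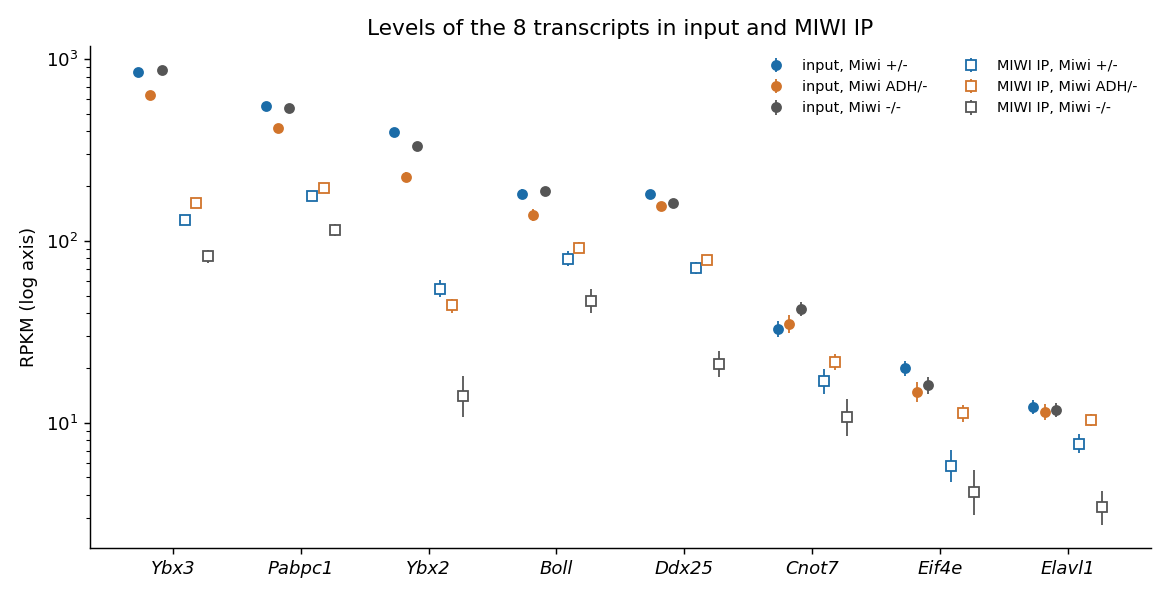
RPKM of the 8 transcripts (log axis) in the 3 inputs (filled circles) and the 3 MIWI IPs (open squares), coloured by genotype, with exact 95% Poisson counting intervals. Every transcript has its lowest value in the Miwi -/- IP, and Ybx3, Pabpc1 and Ybx2 lead the inputs. The median of all kept genes is lowest in that IP too, at 1.62 RPKM. It is 4.14 in the Miwi +/- IP and 5.06 in the Miwi ADH/- IP. The share of kept genes that are lowest there was not computed.

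The order of the members differed between input and IP. In all 3 inputs the order from the top was Ybx3, Pabpc1 and Ybx2, followed by Boll and Ddx25 in either order, then Cnot7, Eif4e and Elavl1. In all 3 IPs it was Pabpc1, Ybx3, Boll, Ddx25, Ybx2 and Cnot7, so Ybx2 ranked 3 in the inputs and 5 in the IPs. Ybx2 and Ddx25 could not be separated by counting intervals in the Miwi -/- IP, nor could Ybx2 and Cnot7. Elavl1 and Eif4e overlapped in every IP. Together the members held 0.612%, 0.497% and 0.579% of the listed reads of the Miwi +/-, ADH/- and -/- inputs, against 0.267%, 0.260% and 0.235% of those of the IPs.

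The first comparison asks how much of each message was recovered with MIWI where a working copy is present. In Miwi +/-, 6 of 8 members were at least 2-fold lower in the IP than in the input on the log2(RPKM + 1) scale, against 40.6% of all kept genes, and none was higher (4.24% of kept genes). Recovery was lowest for both Y-box messages: the IP-to-input ratio of RPKM was 0.137 (0.122 to 0.153) for Ybx2 and 0.152 (0.143 to 0.161) for Ybx3. It was highest for Elavl1, at 0.629 (0.542 to 0.729), and Cnot7, at 0.517 (0.428 to 0.622). Between these stood Boll at 0.440 (0.392 to 0.493), Ddx25 at 0.392 (0.360 to 0.427), Pabpc1 at 0.318 (0.2995 to 0.337) and Eif4e at 0.289 (0.230 to 0.361). The median ratio of all kept genes was 0.491, so 6 members lay below it and Cnot7 and Elavl1 above, while on the log2(RPKM + 1) scale Elavl1 alone was above the median.

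The difference depended on the level of a gene, over all genes and not only in this set. The 708 kept genes with at least 100 RPKM in the Miwi +/- input had a median log2 difference of -1.53, and the 4575 genes with 10 to under 100 RPKM had -1.03, against -0.77 for all kept genes. Set against the genes of its own level class, Ybx2 stood at -1.32, with 5.65% of that class below it, and Ybx3 at -1.18, with 8.19% below it. On the same scale Pabpc1, at -0.12, and Ddx25, at 0.19, lay near their class median, with 45.5% and 58.5% of the class below them. Boll had 64.8% of its class below it. Of the less abundant members, Eif4e had 25.7% of its class below it, Cnot7 55.2% and Elavl1 68.8%. The part of the level in these ratios was not tested beyond this.

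In Miwi ADH/-, where the catalytic site of MIWI is mutated, 3 of 8 members were at least 2-fold lower in the IP than in the input (Ybx2, Ybx3 and Pabpc1), against 25% of all kept genes, and none was higher (4.83% of kept genes). The ratios were 0.195 (0.176 to 0.217) for Ybx2, 0.253 (0.242 to 0.265) for Ybx3 and 0.468 (0.444 to 0.493) for Pabpc1. Ddx25 had a ratio of 0.509 (0.473 to 0.549), Cnot7 of 0.622 (0.534 to 0.726) and Boll of 0.661 (0.597 to 0.734). Eif4e reached 0.764 (0.645 to 0.906) and Elavl1 0.898 (0.790 to 1.02), the only member whose counting interval included equality in this comparison. The Y-box messages again had the lowest recovery, with 7.59% (Ybx2) and 15.6% (Ybx3) of their level class below them. Eif4e, in the lower part of its class in Miwi +/-, had 63.4% of it below in Miwi ADH/-, near the 60.5% in the Miwi -/- IP.

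In the background IP from Miwi -/- cells all 8 members were at least 2-fold lower than in the input, against 60.9% of all kept genes, and none was higher (3.67% of kept genes). Ybx2 had a ratio of 0.0423 (0.0323 to 0.0544), from 62 IP reads, Ybx3 of 0.0946 (0.0867 to 0.103) and Ddx25 of 0.129 (0.109 to 0.153). Pabpc1 stood at 0.214 (0.197 to 0.232). Boll, Cnot7, Eif4e and Elavl1 lay close together, at 0.250 (0.212 to 0.294), 0.254 (0.196 to 0.326), 0.259 (0.189 to 0.350) and 0.292 (0.230 to 0.368), with overlapping intervals. Whether the set lies low in this IP depends on the pseudocount. With a pseudocount of 1 RPKM all 8 members were below the all-gene median log2 difference of -1.37, while with 0.1 RPKM 4 were below the median, which was then -2.18, and 4 above. Within level classes Ybx2 had 9.33% of genes below it and Ybx3 32.6%, and Ddx25, with 47.2%, lay near the middle. Boll, at 73.3%, Pabpc1, at 66.8%, and Elavl1, at 66.2%, lay in the upper part of their classes, followed by Eif4e at 60.5% and Cnot7 at 56.2%.

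**Figure D2:**
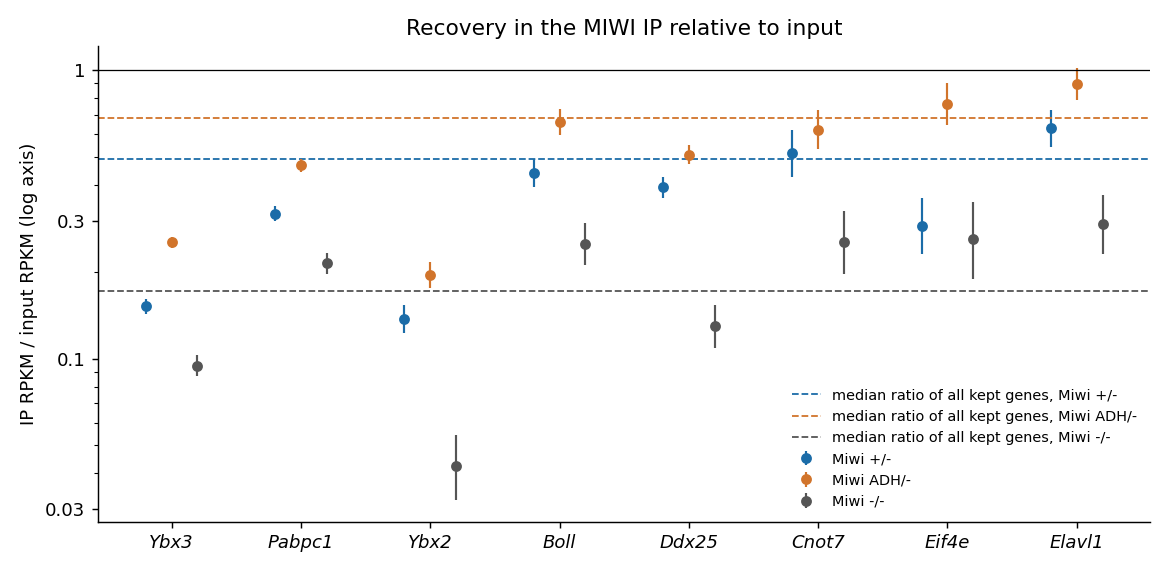
Ratio of IP RPKM to input RPKM (log axis) for each transcript in the 3 genotypes, with exact 95% Clopper-Pearson counting intervals, and the median ratio of all kept genes as dashed lines (Miwi +/- at 0.491, Miwi ADH/- at 0.682 and Miwi -/- at 0.171). Ybx2 and Ybx3 have the lowest ratios in every genotype, and the Miwi -/- ratios of Ybx2, Ybx3 and Ddx25 lie below the Miwi -/- line.

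Relative to genes of its own level class, Ybx2 was at least 2-fold lower in the IP in all 3 genotypes, at -1.32, -1.27 and -1.64 in Miwi +/-, ADH/- and -/-. Ybx3 was so in Miwi +/- alone, at -1.18, and stood at -0.91 in Miwi ADH/- and -0.56 in Miwi -/-. Under scalings that do not match level, Ybx2 and Ybx3 were at least 2-fold lower in the IP in all 3 genotypes relative to the all-gene median with either pseudocount, to genes of like length, with median-of-ratios factors and with equal column totals. No other member was so in Miwi +/- or ADH/- under any of these scalings, for which the share of all kept genes past 2-fold was not computed. In Miwi -/- Ddx25 was at least 2-fold lower too, relative to the all-gene median with a pseudocount of 1 RPKM, to genes of like length and with equal column totals, but not with median-of-ratios factors, at -0.97, or relative to the median with a pseudocount of 0.1 RPKM, at -0.76.

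IP enrichment over the control, the IP-minus-input difference in a genotype less that in Miwi -/-, asks which messages were recovered beyond antibody background. Ybx2 and Ddx25 had the largest values in the set in both genotypes that hold MIWI. In Miwi +/-, 2 of 8 members (Ybx2 and Ddx25) were at least 2-fold enriched on the log2(RPKM + 1) scale, against 39.3% of all kept genes, and none was 2-fold lower (9.56% of kept genes). With a pseudocount of 0.1 RPKM Elavl1 and Cnot7 passed as well, 4 of 8 members against 50.3% of kept genes. The ratios that follow are of RPKM with no pseudocount. The ratio of ratios was 3.24 (2.46 to 4.27, from the summed inverse read numbers, as for all ratios of ratios below) for Ybx2 and 3.03 (2.51 to 3.66) for Ddx25. It was 2.15 (1.64 to 2.82) for Elavl1, 2.03 (1.497 to 2.76) for Cnot7, 1.76 (1.44 to 2.14) for Boll, 1.605 (1.45 to 1.78) for Ybx3 and 1.49 (1.34 to 1.64) for Pabpc1. Eif4e stood at 1.11 (0.770 to 1.61), the only member whose interval included equality.

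In Miwi ADH/- all 8 members were at least 2-fold enriched over the control, against 51.9% of all kept genes (7.3% were 2-fold lower). That share is not matched for level. In Miwi -/- the median IP-minus-input difference was -2.10 for genes with 10 to under 100 RPKM in the input. It was -2.83 for those with at least 100 RPKM, against -1.37 for all kept genes. In Miwi ADH/- the same medians were -0.64, -1.07 and -0.41. Every member falls in these level classes. The ratios of ratios were 4.61 (3.51 to 6.06) for Ybx2 and 3.93 (3.28 to 4.72) for Ddx25. Elavl1 followed at 3.07 (2.37 to 3.99) and Eif4e at 2.94 (2.09 to 4.14). Ybx3 had 2.67 (2.43 to 2.94), Boll 2.64 (2.18 to 3.20), Cnot7 2.45 (1.84 to 3.27) and Pabpc1 2.19 (1.98 to 2.41). Both enrichments subtract the same Miwi -/- columns, of which the IP has the fewest reads, so their common order is partly shared by construction.

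Where a member stood among all genes depended on the scale. The all-gene median of the log2 differences was 0.67 for Miwi +/- and 1.06 for Miwi ADH/-. Relative to it, Ybx2 stood at 0.96 and 1.08 and Ddx25 at 0.88 and 0.87, with 77.7% and 81.7% of kept genes below Ybx2 and 76.2% and 76.6% below Ddx25. Both kept a positive sign under every scaling tried. The values were 0.61 and 0.67 for Ybx2 and 0.52 and 0.44 for Ddx25 with median-of-ratios factors, and 0.68 and 0.66 for Ybx2 and 0.58 and 0.43 for Ddx25 relative to the median with a pseudocount of 0.1 RPKM. Elavl1 was positive under each scaling that does not match level, at 0.03 and 0.09 with median-of-ratios factors. Ybx3, Pabpc1, Cnot7 and Boll changed sign with those factors, to -0.39, -0.50, -0.05 and -0.26 in Miwi +/- and -0.10, -0.39, -0.22 and -0.12 in Miwi ADH/-. Eif4e turned to -0.82 in Miwi +/- and stayed at 0.03 in Miwi ADH/-. None of these scalings matches level. Relative to genes of its own level class, the IP-minus-input difference of Ybx2 was -1.32 in Miwi +/- and -1.27 in Miwi ADH/-, against -1.64 in Miwi -/-. That of Ddx25 was 0.19 and 0.10, against -0.06. The direction for Ybx2 depended on the measure. By the share of its class below it, Ybx2 stood lower than in Miwi -/-, at 5.65% and 7.59%, against 9.33%. Ddx25 stood higher by this share too, at 58.5% and 54.6%, against 47.2%. By the log2 distance from the class median, every other member stood lower in both genotypes than in Miwi -/-, for example Elavl1 at 0.42 and 0.49, against 0.57. By the share of the class below it, Elavl1 stood higher in both, at 68.8% and 72.0%, against 66.2%. Eif4e stood higher by this share in Miwi ADH/- alone, at 63.4%, against 60.5%. Ybx3, Pabpc1, Cnot7 and Boll stood lower by both measures.

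**Figure D3:**
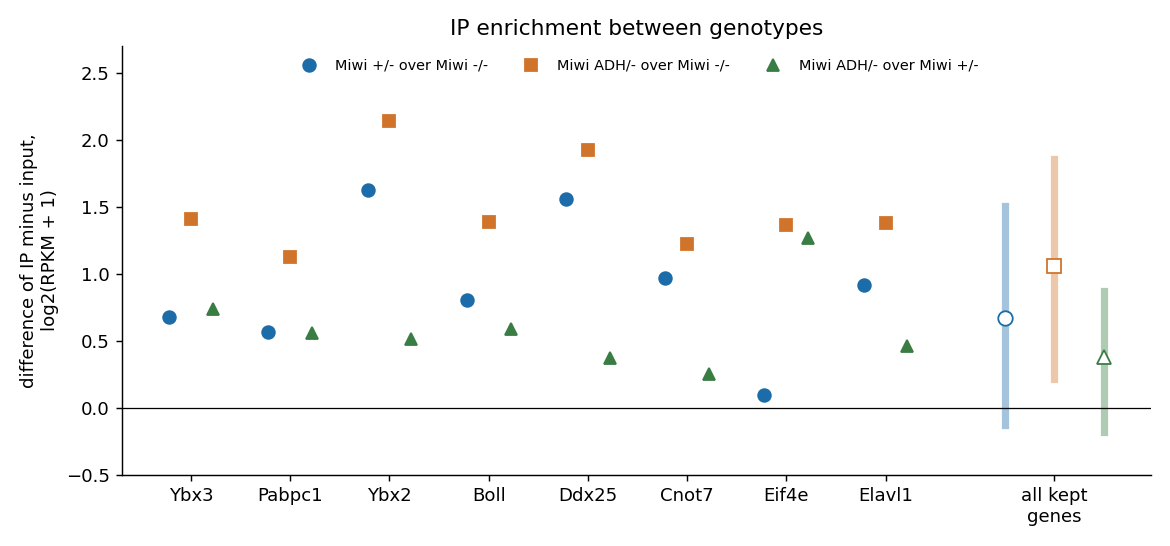
Difference of IP-minus-input values between genotypes, on the log2(RPKM + 1) scale, for each transcript and, at the right, for all kept genes (open symbol, median; bar, lower to upper quartile). Ybx2 and Ddx25 are the highest over the Miwi -/- control, and Eif4e is the highest in Miwi ADH/- over Miwi +/-.

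Compared directly, the Miwi ADH/- IP recovered more of every member relative to input than the Miwi +/- IP did on the deposited scale. Only Eif4e (1 of 8) passed 2-fold, against 20.5% of all kept genes, and none was 2-fold lower (7.56% of kept genes). Its IP-to-input ratio was 2.64-fold higher (2.00 to 3.48), a log2 difference of 1.27, with 87.0% of kept genes below it. The IP of Miwi ADH/- held 343 reads of Eif4e and that of Miwi +/- 98. The level in the IP was 1.95-fold higher (1.55 to 2.46), while in the input it was 1.36-fold lower (1.15 to 1.60). The difference stayed positive under each scaling tried but fell below 2-fold in all of them, at 0.89 relative to the all-gene median, 0.88 relative to genes of like length, 0.85 with median-of-ratios factors, 0.93 with equal column totals and 0.92 relative to the median with a pseudocount of 0.1 RPKM.

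The other members lay nearer to the all-gene median of 0.38. Ybx3 stood at 0.73 (a ratio of ratios of 1.67, 1.55 to 1.79), Boll at 0.58, Pabpc1 at 0.56, Ybx2 at 0.51 and Elavl1 at 0.46. Ddx25, at 0.37, and Cnot7, at 0.25, were below the median, and the interval of Cnot7 included equality (0.951 to 1.53). Ddx25 and Cnot7 turned negative under each of the other scalings, for example to -0.07 and -0.18 with median-of-ratios factors. In the IPs themselves, on the deposited scale, Ybx2 alone was lower in Miwi ADH/- than in Miwi +/-, by 1.24-fold (1.08 to 1.42), 1 of 8 members against 21.1% of kept genes by the counting interval. The 7 others were higher with intervals that excluded equality, against 40.9% of all kept genes. The all-gene median in this comparison was 0.21, and relative to it 4 members were higher and 4 lower. Ddx25 and Pabpc1 turned to -0.05 and -0.06 with median-of-ratios factors, and Ddx25, Pabpc1 and Boll to -0.11, -0.12 and -0.06 with equal column totals.

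**Figure D4:**
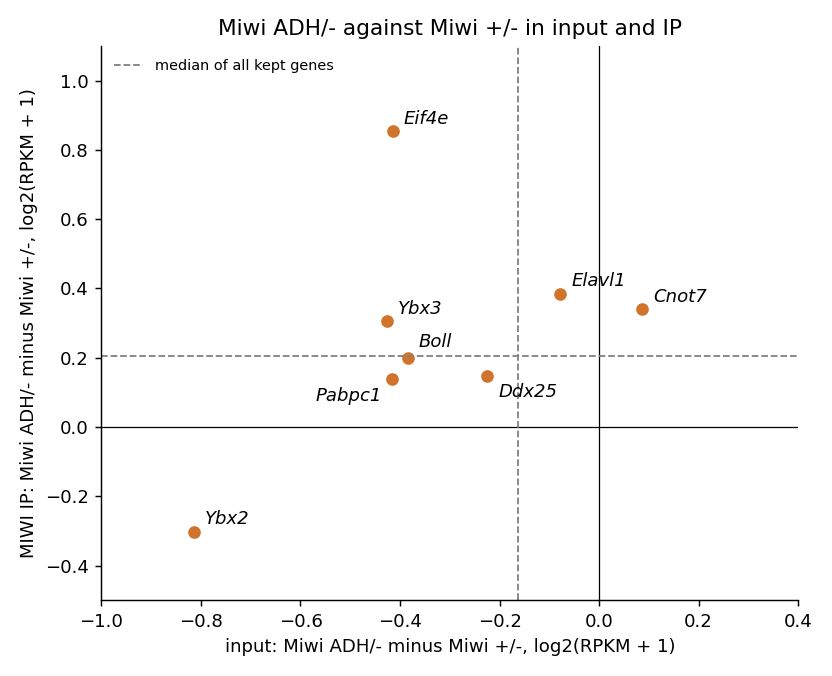
Log2(RPKM + 1) difference between Miwi ADH/- and Miwi +/- in the input (horizontal) and in the MIWI IP (vertical) for the 8 transcripts, with the medians of all kept genes as dashed lines (-0.16 in the input and 0.21 in the IP). Eif4e lies at the upper left, higher in the IP and lower in the input, and Ybx2 at the lower left, lower in both.

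The inputs give the level of each message in the starting material. In bulk RNA, fewer cells of a type and less RNA per cell cannot be told apart. Between Miwi ADH/- and Miwi +/-, no member was 2-fold apart, against 7.8% of kept genes higher and 7.42% lower. The counting interval excluded equality in the lower direction for 6 of 8 members, against 35.6% of kept genes, and in the higher direction for none, against 20% of kept genes. Ybx2 was 1.76-fold lower (1.65 to 1.88), with 12.7% of kept genes below it. Eif4e was 1.36-fold lower, Ybx3 1.34-fold (1.30 to 1.39), Pabpc1 1.34-fold (1.28 to 1.40), Boll 1.31-fold (1.19 to 1.44) and Ddx25 1.17-fold (1.09 to 1.25). Elavl1, 1.06-fold lower (0.929 to 1.21), and Cnot7, 1.06-fold higher (0.914 to 1.24), had intervals that included equality. Relative to the all-gene median of -0.16, Ybx2 stood at -0.65 and Ddx25 at -0.06, and Cnot7, at 0.25, and Elavl1, at 0.08, were above it.

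Between the Miwi -/- and Miwi +/- inputs the members lay closer together. No member was 2-fold apart, against 4.47% of kept genes higher and 10.6% lower. Cnot7 was 1.29-fold higher (1.13 to 1.48) in Miwi -/-, the only member with an interval above equality, against 22.3% of kept genes. Eif4e was 1.25-fold lower (1.08 to 1.44), Ybx2 1.201-fold (1.14 to 1.27) and Ddx25 1.11-fold (1.05 to 1.18), 3 of 8 members against 26.6% of kept genes. Ybx3, Pabpc1, Boll and Elavl1 had ratios of 1.02 (0.989 to 1.045), 0.969 (0.932 to 1.01), 1.03 (0.952 to 1.12) and 0.961 (0.850 to 1.09).

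Between the mutants, no member was 2-fold apart (12.6% of kept genes were higher in Miwi ADH/- and 6.54% lower). All 8 were lower in the Miwi ADH/- input, 5 with intervals that excluded equality, against 36.5% of kept genes, and none was higher by its interval (21.7% of kept genes). Ybx2 was 1.47-fold lower (1.37 to 1.57), Ybx3 1.37-fold (1.32 to 1.41), Boll 1.35-fold (1.23 to 1.49), Pabpc1 1.29-fold (1.24 to 1.35) and Cnot7 1.22-fold (1.05 to 1.41). Ddx25, Elavl1 and Eif4e stood at ratios of 0.952 (0.888 to 1.02), 0.982 (0.857 to 1.12) and 0.919 (0.774 to 1.09). Relative to the all-gene median of -0.18 these 3 were above it and the other 5 below. The comparisons between inputs share columns in pairs, so they are not independent of each other.

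Over all 6 columns, with each gene's own mean taken off its log2 values, Cnot7 and Boll had the most similar profiles in the set, at a Euclidean distance of 0.38. Pabpc1 and Boll followed at 0.52 and Eif4e and Boll at 0.54. Ybx2 and Ybx3 were each other's nearest member at 1.12, the widest distance of a member to its nearest member. These are descriptions of 6 values. For every member other kept genes lay nearer than the nearest member, from 67 genes for Cnot7 to 1234 for Ddx25, and none of them is named here.

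Some of these read numbers may include reads of other genes. In the RefSeq gene table of GRCm38.p6 Cnot7 overlaps the protein-coding gene Vps37a, Boll a pseudogene, Ybx3 a small nucleolar RNA gene and Eif4e a microRNA gene. The same table lists Pabpc1l2a and Pabpc1l2b, named as relatives of Pabpc1. The labels do not say how reads from overlapping genes and copies were counted or whether strand was used.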

How the data were processed

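The deposited table gives RPKM per gene, computed by the authors, in 6 columns. The header states the unit for the Miwi +/- columns alone. It was assumed for the rest, whose values step in the same proportions. Per the submitters' processing notes, TopHat, Bowtie and the mm9 build were used. Not given in the sources used here are the tool for counting, its annotation and whether samples were pooled.

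The reads behind each RPKM were found as the smallest whole numbers, within 0.002 reads, that fit a gene's values after scaling columns by their relative totals. All values (100%) of the 17452 genes with more than 1 value came out whole. The search was tested on simulated data.

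The filter kept genes reaching 1 RPKM in 2 or more columns. Differences are of log2(RPKM + 1), and called means at least 2-fold. No model could be fitted to 1 column per group. Ratio intervals are Clopper-Pearson; those of ratios of ratios are normal on the log scale. Alternatives were a pseudocount of 0.1, other scalings, a 1.5-fold threshold and no filter.

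Member names came with the definition of the set, and each symbol has a row in the RefSeq table. That table matched 0 Ensembl IDs, so further gene and marker lists fixed by symbol, and the rule naming the most similar gene, gave no values. All members are described. Members and lists were chosen with earlier results of these data known. Python 3.11.15, numpy 2.4.6, pandas 2.3.3, scipy 1.17.1 and matplotlib 3.10.9 were used.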

Additional observations from a re-analysis of the deposited data

Results flagged for a closer look

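In 3 cases a genotype difference ran one way in the IP and the other way in the input, with counting intervals clear of equality in both and also relative to the all-gene medians. Each case rests on single columns, and the difference was not tested. The share of all kept genes that meet this rule was not computed, so the count of 3 has no reference among all genes. For Eif4e, Miwi ADH/- against Miwi +/- gave 0.85 (IP) and -0.41 (input), a gap of 1.27 on the log2 scale. The signs were the same with median-of-ratios factors (0.68 and -0.17) and with equal column totals (0.64 and -0.29). For Ybx3 the same contrast gave 0.31 and -0.43, a gap of 0.73, and 0.05 and -0.30 with equal column totals. For Ybx2, Miwi ADH/- against Miwi -/- gave 1.59 and -0.55, a gap of 2.14, and 0.31 and -0.36 with median-of-ratios factors.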

How the results depend on the processing

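No paired analysis was possible because each group has 1 column without a replicate number, and leaving out a replicate was not possible for the same reason. The counts of members at least 2-fold apart depended on the scale. Relative to the all-gene median, to genes of like length, with median-of-ratios factors, with equal column totals, and relative to the median with a pseudocount of 0.1 RPKM, the count for IP against input in Miwi +/- fell from 6 to 2. For Miwi -/- it fell from 8 to 3, 3, 2, 3 and 2 in the same order. For enrichment over Miwi -/- it fell from 2 to 0 in each for Miwi +/-, and from 8 to 1, 1, 0, 1 and 0 for Miwi ADH/-. For Miwi ADH/- over Miwi +/- it fell from 1 to 0 in each. The share of all kept genes past 2-fold was not computed under these scalings, so the remaining counts have no reference among all genes.

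A pseudocount of 0.1 RPKM on the deposited scale raised the count for Miwi +/- over Miwi -/- from 2 to 4 and changed no other. At 1.5-fold, that count was 6, those for IP against input were 8 in Miwi +/- (from 6) and 6 in Miwi ADH/- (from 3), that for Miwi ADH/- over Miwi +/- was 2 (from 1), and that for the Miwi ADH/- against Miwi +/- inputs was 1 (from 0). The share of all kept genes past 1.5-fold was not computed. The all-gene medians for IP against input in Miwi +/-, -0.77, and for Miwi +/- over Miwi -/-, 0.67, were themselves past 1.5-fold. That for IP against input in Miwi ADH/-, -0.41, was not.

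Of 72 member differences, called or not, 23 changed sign with median-of-ratios factors, 23 relative to the median with a pseudocount of 0.1 RPKM, 13 with equal column totals, 12 relative to genes of like length and 11 relative to the all-gene median. Among them were Elavl1 (0.26) and Eif4e (0.05) for IP against input in Miwi ADH/- with median-of-ratios factors. Of the values called at 2-fold, 6 changed sign with those factors: Elavl1 (0.17) and Eif4e (0.018) for IP against input in Miwi -/-, and Ybx3 (-0.10), Pabpc1 (-0.39), Cnot7 (-0.22) and Boll (-0.12) for Miwi ADH/- over Miwi -/-. With a pseudocount of 0.1 RPKM relative to the median, 9 did. For IP against input in Miwi -/- these were Elavl1 (0.43), Eif4e (0.26), Cnot7 (0.21) and Boll (0.18). For Miwi ADH/- over Miwi -/- they were Ybx3 (-0.13), Pabpc1 (-0.41), Eif4e (-0.0083), Cnot7 (-0.26) and Boll (-0.14). The alternatives by length, and with that pseudocount relative to the median, were chosen after seeing the data. Without the filter, the share of genes called for IP against input in Miwi -/- was 41.9% against 64.6%, and in Miwi +/- 29.5% against 44.9%. Depth limits the Miwi -/- IP most, where Eif4e had 50 reads and Ybx2 62.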
